A study of Equus caballus with 25 samples.

Results

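VAV1, LCP2 and PIK3CG were followed through the 6 transcripts that stand for them on an equine oligonucleotide array, out of 7238 transcripts measured in all. The 6 were chosen by probe name, 3 for VAV1, 1 for LCP2 and 2 for PIK3CG, and all 6 were among the 4930 transcripts that passed the filter on low intensity. RNA came from bronchoalveolar lavage (BAL) cells of 25 horses, with 1 array per horse: 7 control horses without airway disease (CTRL, labelled Control), 10 with mild-moderate equine asthma (MEA, labelled IAD) and 8 with severe equine asthma (SEA, labelled RAO). No horse had an experimental treatment: asthmatic horses were sampled when they came to a clinic, healthy ones were volunteered by their owners, and the MEA horses were restricted to those with neutrophilic inflammation. SEA-affected horses were older than the horses of the other groups, which were alike in age, so SEA cannot be told apart from age. All CTRL horses were standardbreds while the asthma groups mixed standardbreds and saddle horses, so breed was partly bound to group and was not tested. By cytology macrophages made up nearly all CTRL cells and most MEA cells, whereas neutrophils prevailed in SEA.

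All 3 genes act in the signalling of leukocyte surface receptors. VAV1 is a guanine nucleotide exchange factor of blood cells that is phosphorylated after antigen, Fc and integrin receptors are engaged and then promotes the rearrangement of actin. LCP2 is a cytosolic adaptor that, once phosphorylated, brings VAV1 and phospholipase C gamma together below T cell, Fc and platelet receptors. PIK3CG is the catalytic subunit of phosphoinositide 3-kinase gamma, which is switched on by G protein-coupled receptors, chemokine receptors among them, and serves the migration of neutrophils and macrophages.

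The probe sequences decide how far the transcripts are separate measurements, so they are shown here as the array files give them. Capitals mark the 43 bases that both PIK3CG probes hold.
VAV1 ENSECAT00000016365: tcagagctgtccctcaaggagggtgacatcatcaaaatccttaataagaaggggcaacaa
VAV1 ENSECAT00000016417: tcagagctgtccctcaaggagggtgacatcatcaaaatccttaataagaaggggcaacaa
VAV1 ENSECAT00000016450, first 30 bases: atgccttgtcatggttaatttataacacac
LCP2 ENSECAT00000023396: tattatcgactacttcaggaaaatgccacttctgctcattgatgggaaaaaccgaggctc
PIK3CG ENSECAT00000021120: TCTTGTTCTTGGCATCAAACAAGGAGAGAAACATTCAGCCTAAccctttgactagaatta
PIK3CG ENSECAT00000021205: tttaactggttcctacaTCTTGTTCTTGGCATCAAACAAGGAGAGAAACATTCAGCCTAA
VAV1 transcripts ENSECAT00000016365 and ENSECAT00000016417 carry one and the same sequence, so the 6 transcripts hold 5 distinct sequences. The shared stretch begins at base 1 of the probe of PIK3CG ENSECAT00000021120 and at base 18 of that of ENSECAT00000021205. On the whole array 976 of the 7238 probes (13.5%) shared their full sequence with another probe. No probe of another gene held 20 consecutive bases of any of the 6. Probes of 1 gene are therefore not independent replicates, and 2 VAV1 transcripts are repeat spots of 1 probe. Each transcript was printed as 2 spots, whose mean is its level.

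Levels are log2 intensities after normalization between arrays, and they were compared only within a probe, since brightness also depends on the probe. Of the whole array, 58.2% to 90.8% of the spots were well above background, with medians of 77.7% in CTRL, 74.0% in MEA and 72.7% in SEA. Arrays lay on 4 slides, each of which held horses of all 3 groups.

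VAV1 rose in SEA-affected horses by all 3 of its transcripts. For ENSECAT00000016450 the lowest, median and highest level were 13.28, 13.997 and 14.30 in the 7 CTRL horses, 14.05, 14.59 and 16.35 in the 10 MEA horses and 14.41, 15.07 and 16.36 in the 8 SEA horses. All 8 SEA horses lay above the highest CTRL horse, with a gap of 0.11, and 7 of 10 MEA horses did. A lack of overlap in that direction was found for 75 of 4930 tested transcripts (1.52%). ENSECAT00000016450 was 2.41-fold higher in SEA than in CTRL (log2 difference 1.27, SE 0.28, adjusted p = 0.00936).

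For VAV1 ENSECAT00000016417 the lowest, median and highest level were 10.69, 11.58 and 12.14 in CTRL, 11.46, 12.05 and 13.85 in MEA and 12.08, 12.71 and 13.93 in SEA. The groups met in SEA horse R1, and the other 7 SEA horses were above every CTRL horse. The difference was 2.36-fold (log2 1.24, SE 0.29, adjusted p = 0.0122). ENSECAT00000016365, which has the same probe sequence, spread more widely in SEA, with 11.20, 12.68 and 13.99 against 10.62, 11.32 and 12.13 in CTRL and 11.07, 12.11 and 13.18 in MEA. Its level in SEA horses R1, R4 and R8 fell within the CTRL range, and the difference was 2.29-fold (log2 1.195, SE 0.36, adjusted p = 0.0264).

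LCP2 (ENSECAT00000023396) rose in SEA as well. Its lowest, median and highest level were 7.91, 9.51 and 9.86 in CTRL, 8.996, 9.75 and 10.98 in MEA and 9.58, 10.27 and 11.43 in SEA. SEA horses R1 and R4 overlapped the CTRL horses, and the other 6 lay above them. The difference between SEA and CTRL was 2.22-fold (log2 1.15, SE 0.34, adjusted p = 0.0250).

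PIK3CG rose in SEA by both transcripts, which were dimmer probes. For ENSECAT00000021120 the lowest, median and highest level were 4.01, 6.15 and 6.55 in CTRL, 5.01, 6.53 and 6.81 in MEA and 6.42, 6.93 and 7.51 in SEA. For ENSECAT00000021205 they were 3.23, 6.51 and 6.90 in CTRL, 5.51, 7.00 and 7.53 in MEA and 6.66, 7.30 and 7.94 in SEA. In each transcript 6 of 8 SEA horses were above every CTRL horse, and the overlap came from R5 and R8 in the first and from R4 and R5 in the second. The differences were 2.26-fold (log2 1.17, SE 0.33, adjusted p = 0.0189) and 2.49-fold (log2 1.32, SE 0.44, adjusted p = 0.0365). CTRL horse C1 stood at the low end of both transcripts. With the normexp background correction in place of the scanner software's own, the PIK3CG differences were 0.51 (adjusted p = 0.0215) and 0.58 (0.0280). Both were under the fold limit, so the PIK3CG calls were lost there. That correction added an offset of 50 to each signal, and the processed signals of PIK3CG spots ran from 5.86 to 254. The part of the offset in this loss was not tested.

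**Figure D1:**
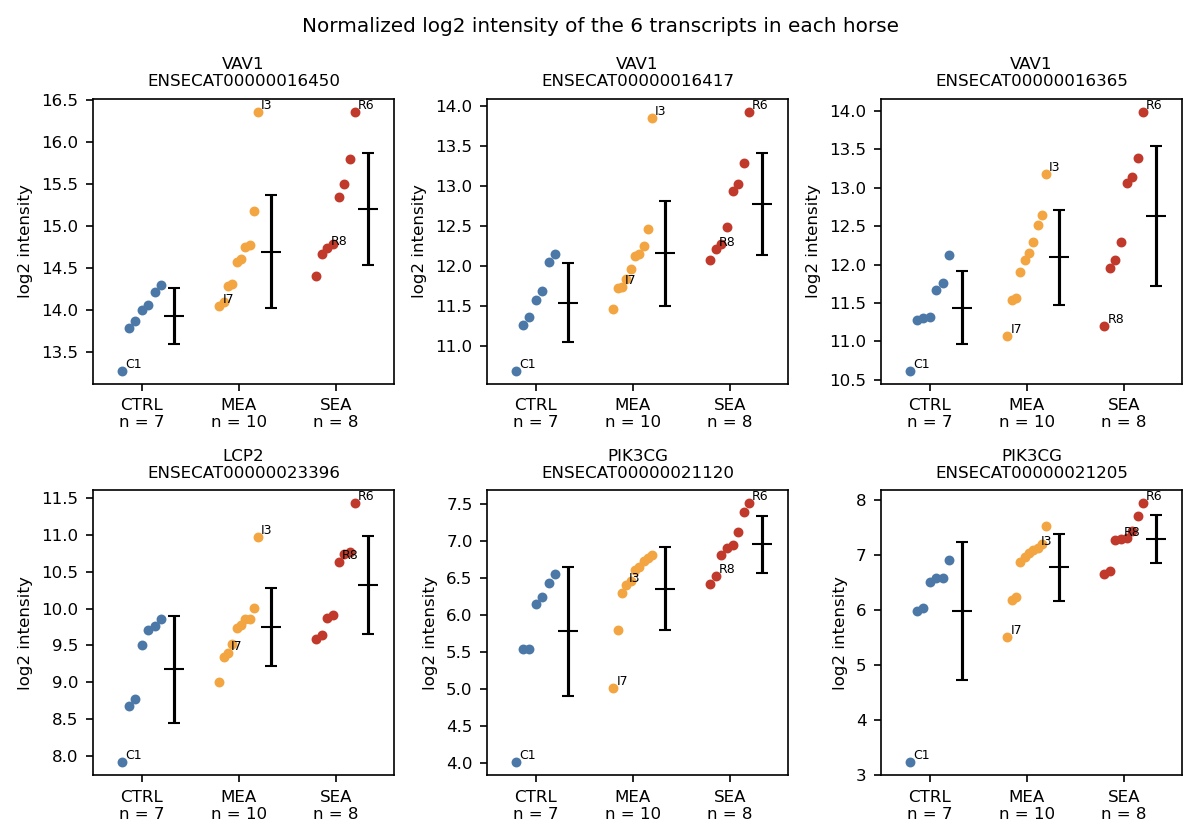
Log2 intensity (vertical axis) of each of the 6 transcripts in the 7 CTRL, 10 MEA and 8 SEA horses, 1 point per horse in order of level, with bars for the group mean and SD, and some horses named. Group means stand in the order CTRL, MEA, SEA in all 6 panels, with CTRL horse C1 lowest among controls in each.

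In the comparison of SEA with CTRL, which asks what differs between the severe disease and healthy airways, all 6 transcripts were called higher (limma, adjusted p below 0.1 over all 4930 transcripts and a fold change of at least 1.5). By the same rule 783 of all tested transcripts (15.9%) were called higher and 818 (16.6%) lower, and the median log2 difference of all was −0.01. The intervals of the 6 log2 differences overlapped widely, from 0.39–2.24 for PIK3CG ENSECAT00000021205 to 0.69–1.86 for VAV1 ENSECAT00000016450 (95% confidence), so no order between the genes can be read from them. BAL cells are a mixture, in which more cells of a type and more RNA per cell cannot be told apart.

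In MEA against CTRL none of the 6 transcripts was called, where 159 of all tested transcripts (3.23%) were called higher and 321 (6.51%) lower (28 higher among 156 calls with the normexp background correction). The log2 differences were 0.77 (SE 0.27, adjusted p = 0.107), 0.65 (0.27, 0.166) and 0.62 (0.29, 0.207) for VAV1 ENSECAT00000016450, ENSECAT00000016365 and ENSECAT00000016417. They were 0.58 (SE 0.29, adjusted p = 0.254) for LCP2 and 0.80 (0.42, 0.267) and 0.57 (0.33, 0.308) for PIK3CG ENSECAT00000021205 and ENSECAT00000021120. The 3 VAV1 transcripts had an unadjusted p below 0.05, and the rank sum version of SAM, the test named in the methods, called those 3. SAM called 745 of all tested transcripts, 289 of them higher. The intervals reached up to 1.34 for VAV1 ENSECAT00000016450 and 1.68 for PIK3CG ENSECAT00000021205, so a rise as large as that in SEA is not excluded for either.

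SEA against MEA, the comparison of the 2 disease forms, likewise called none of the 6, where 65 of all tested transcripts (1.32%) were called higher and 36 (0.73%) lower (34 higher among 40 calls after quantile normalization). The log2 differences were close to each other. They were 0.50 (SE 0.31, adjusted p = 0.352), 0.62 (0.30, 0.244) and 0.54 (0.34, 0.368) for VAV1 ENSECAT00000016450, ENSECAT00000016417 and ENSECAT00000016365. LCP2 gave 0.58 (0.28, 0.243), PIK3CG ENSECAT00000021120 gave 0.60 (0.24, 0.175) and ENSECAT00000021205 gave 0.52 (0.26, 0.250). At an unadjusted p below 0.05 there was 1 transcript, PIK3CG ENSECAT00000021120, in which 6 of 8 SEA horses were above the highest MEA horse. The rank sum version of SAM called 2, that one and VAV1 ENSECAT00000016417, among 662 calls over all tested transcripts, 403 of them higher. The order of the group means was thus CTRL, MEA, SEA in every transcript, and only the ends of that order differed past the threshold. The MEA and SEA comparisons with CTRL share their control horses.

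**Figure D2:**
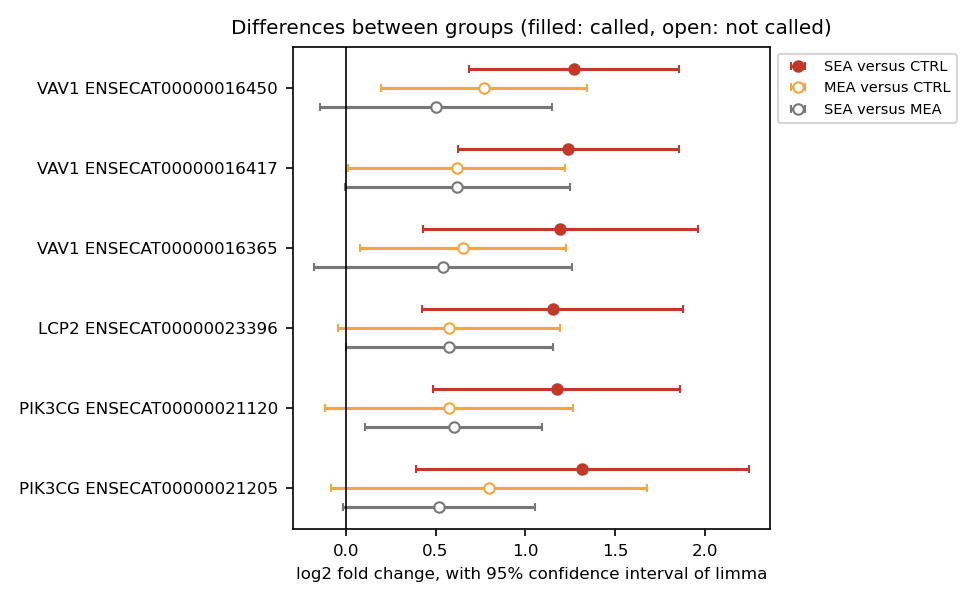
Log2 difference (horizontal axis) of the 6 transcripts in SEA versus CTRL, MEA versus CTRL and SEA versus MEA, with bars for the 95% confidence interval from limma. All 6 were called in SEA versus CTRL, at 1.15 to 1.32, and none in the other 2 comparisons.

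Horses were compared within a slide as well. With the slide as a block all 6 transcripts stayed called in SEA versus CTRL, at log2 differences of 1.06 to 1.18. Within slides 1, 2, 3 and 4 the SEA minus CTRL difference of VAV1 ENSECAT00000016450 was 0.66, 0.9996, 1.96 and 0.44, and that of LCP2 was 0.77, 0.59, 1.66 and 1.13. For PIK3CG ENSECAT00000021120 it was 1.69, 0.71, 1.49 and 0.10. Slide 4 held a single horse of each of these groups, C7 and R8, and there VAV1 ENSECAT00000016365 had the opposite sign, −0.12.

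That reversal stands beside a disagreement between spots. The 2 VAV1 transcripts with one sequence give 4 spots of the same probe on each array, whose range had a median of 0.34 over the 25 arrays and went from 0.10 to 3.01. It was above 1 in 5 horses, C7, I3, I7, I8 and R8, all on slide 4, which held 7 arrays. In all 5 the second spot of ENSECAT00000016365 was the lowest of the 4. It read 10.16 in C7 against 11.99 to 12.48 for the other spots, 12.11 in I3 against 13.83 to 14.25, and 9.69 in R8 against 12.17 to 12.70.

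The spots of ENSECAT00000016365 lay more than 1 apart on 4 of 7 arrays of slide 4 and on 0 of the other 18. Slide 4 was also less even in general: the share of tested transcripts whose spots differed by more than 1 had a median of 9.27% per array on slide 4 (range 1.40% to 18.2%) and 1.90% on the other slides (0.446% to 12.6%). When the median of the 4 spots was taken in place of the 2 means, SEA exceeded CTRL by 1.24 (adjusted p = 0.0134), MEA exceeded CTRL by 0.62 (0.212) and SEA exceeded MEA by 0.61 (0.258). The levels were then 11.54 ± 0.50 (SD, n = 7) in CTRL, 12.16 ± 0.68 (n = 10) in MEA and 12.78 ± 0.67 (n = 8) in SEA.

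**Figure D3:**
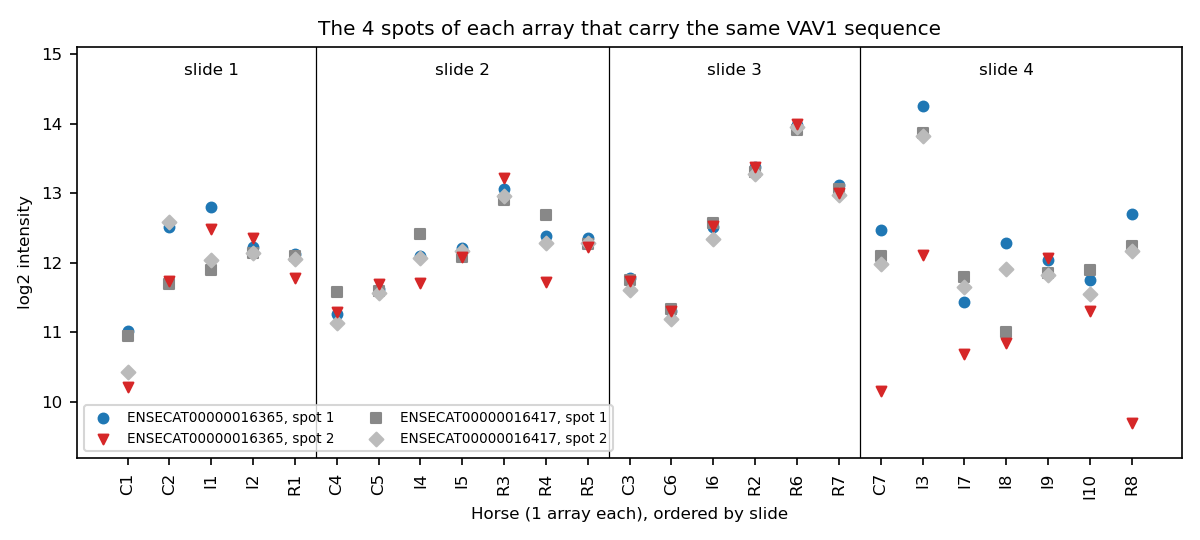
Log2 intensity (vertical axis) of the 4 spots that carry the sequence shared by VAV1 ENSECAT00000016365 and ENSECAT00000016417, by horse and slide. The spots lie within 1 of each other in 20 of 25 horses, and the 5 exceptions are on slide 4, where the second spot of ENSECAT00000016365 is lowest.

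With slide 4 left out, the 6 transcripts kept their calls in SEA versus CTRL (1.16 to 1.42). The 3 VAV1 transcripts were then also called in MEA versus CTRL: ENSECAT00000016450 at 0.91 (adjusted p = 0.0294), ENSECAT00000016365 at 0.85 (0.0652) and ENSECAT00000016417 at 0.74 (0.0776). LCP2 and PIK3CG were not. Over all tested transcripts that MEA versus CTRL fit called 804, 282 of them higher, against 480 and 159 with slide 4. Slide 4 held 5 MEA horses, 1 CTRL horse and 1 SEA horse. The part of the uneven spots in the difference between these fits was not tested.

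The spots of LCP2 and of the other VAV1 transcripts lay closer, and by the median those of PIK3CG did not. The median gap was 0.15 for ENSECAT00000016365, 0.11 and 0.13 for ENSECAT00000016417 and ENSECAT00000016450, and 0.09 for LCP2. It was 0.16 and 0.19 for PIK3CG ENSECAT00000021120 and ENSECAT00000021205. The widest gap between 2 spots of one transcript was 0.50 for LCP2 (C1), 0.91 for VAV1 ENSECAT00000016417 (I8), 0.92 for ENSECAT00000016450 (I1), 1.08 for PIK3CG ENSECAT00000021120 (C1) and 2.43 for ENSECAT00000021205 (I8). The median gap over all tested transcripts was 0.16.

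Over the 25 horses, transcripts of one gene followed each other closely. Pearson's r was 0.97 for VAV1 ENSECAT00000016417 and ENSECAT00000016450, which have different sequences, and 0.95 once the group means were subtracted. It was lower, 0.90 and 0.84, for the pair of VAV1 transcripts with the same sequence, and 0.91 and 0.87 for ENSECAT00000016365 and ENSECAT00000016450. The PIK3CG pair gave 0.94 and 0.92. Between transcripts of different genes r was 0.69 to 0.85, and 0.49 to 0.75 with the group means subtracted. These are descriptions over 25 horses that share arrays and normalization.

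Within single groups the 3 genes, each taken as the mean of its transcripts, gave 5 of 9 correlations past an adjusted p of 0.05 by Pearson's r, 3 in CTRL and 2 in SEA, and none by rank. After quantile normalization the 3 of CTRL passed and none of SEA did (adjusted exact p = 0.115, 0.0522 and 0.0708). In the 7 CTRL horses r was 0.92 for VAV1 with LCP2 (Spearman's rho 0.68, exact p = 0.110), 0.90 for VAV1 with PIK3CG (rho 0.75, exact p = 0.0663) and 0.91 for LCP2 with PIK3CG (rho 0.71, exact p = 0.0881). The exact permutation p of these r was 0.00675, 0.00853 and 0.00635, each 0.0256 after Benjamini-Hochberg adjustment over 9 relations. Ranks did not pass in CTRL, where the adjusted p of rho was 0.149 to 0.164 over the 9 relations. Without the 2 horses farthest from the median on the first gene, C1 and C2 or C1 and C4, the r were 0.89, 0.87 and 0.86, with an adjusted exact p of 0.204 over 5 horses.

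In the 8 SEA horses r was 0.73 for VAV1 with LCP2 (exact p = 0.0426, adjusted 0.0639), 0.82 for VAV1 with PIK3CG (0.0136, 0.0306) and 0.77 for LCP2 with PIK3CG (0.0262, 0.0471). The rho were 0.74, 0.79 and 0.76 (exact p = 0.0458, 0.0279 and 0.0368, each 0.137 when adjusted). Without the 2 farthest horses the r were 0.86, 0.70 and 0.70 (adjusted exact p = 0.025, 0.204 and 0.204), so both relations with PIK3CG no longer passed. In the 10 MEA horses r was 0.61 for VAV1 with LCP2 (permutation p = 0.0872, adjusted 0.112), 0.40 for VAV1 with PIK3CG (0.236, 0.236) and 0.42 for LCP2 with PIK3CG (0.224, 0.236). The rho were 0.09, 0.47 and 0.31 (permutation p = 0.812, 0.181 and 0.388). Without MEA horses I3 and I7, r of VAV1 with LCP2 became −0.44, so that relation rested on them. Whether r differed between groups was not tested.

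**Figure D4:**
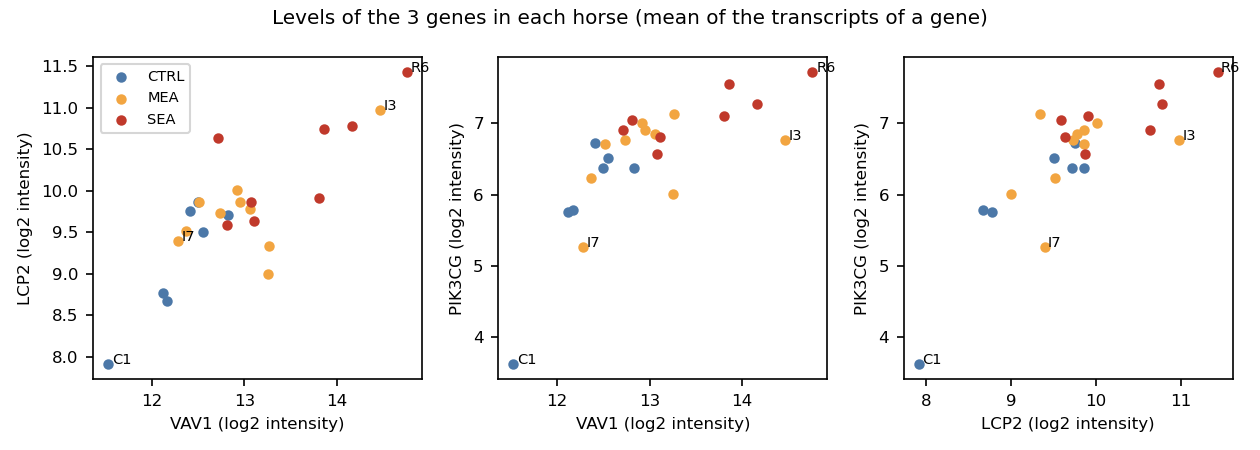
Mean log2 intensity per horse of VAV1, LCP2 and PIK3CG plotted against each other in 3 panels, 1 point per horse coloured by group, with C1, I3, I7 and R6 named. C1 lies at the low end in CTRL, and I3 lies high for VAV1 and LCP2 among MEA horses.

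C1 and I3, which the choice of the subject named as outlying, stood apart from their groups. CTRL horse C1 was the lowest CTRL horse in all 6 transcripts, with a mean deviation of −1.35 from the CTRL mean. The deviation was −2.74 for PIK3CG ENSECAT00000021205 (3.23 against 5.97 ± 1.25), −1.77 for ENSECAT00000021120, −1.26 for LCP2 and −0.85 to −0.65 for VAV1. Of its 12 member spots 9 were well above background, against 12 of 12 in every other horse, and the 3 others were PIK3CG spots. Over all tested transcripts C1 was the lowest CTRL horse in 20.5% and the highest in 23.3%, and its array correlated at 0.949 with the mean of its group.

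Without C1 the CTRL mean was 6.43 ± 0.36 (SD, n = 6) for PIK3CG ENSECAT00000021205, 6.07 ± 0.44 for ENSECAT00000021120, 9.38 ± 0.52 for LCP2 and 14.04 ± 0.20 for VAV1 ENSECAT00000016450. All 6 transcripts stayed called in SEA versus CTRL, with log2 differences of 0.86 (adjusted p = 0.0327) and 0.88 (0.0306) for PIK3CG, 0.94 (0.0573) for LCP2 and 1.06 to 1.16 (0.0234 to 0.0639) for VAV1. Without C1 the MEA versus CTRL differences were 0.34 and 0.28 for PIK3CG, 0.37 for LCP2 and 0.48 to 0.66 for VAV1, with adjusted p of 0.240 to 0.615.

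MEA horse I3 was the highest MEA horse in 4 of 6 transcripts, the 3 of VAV1 and that of LCP2. It lay 1.69 above the MEA mean for VAV1 ENSECAT00000016417, 1.66 for ENSECAT00000016450, 1.09 for ENSECAT00000016365 and 1.23 for LCP2, and only 0.05 and 0.35 above it for PIK3CG. It was the lowest MEA horse in 21.6% of all tested transcripts and the highest in 20.9%, and its array correlated at 0.902 with the mean of its group. With each gene taken as the mean of its transcripts, I3 led the next MEA horse by less after quantile normalization. VAV1 was then 13.96 in I3 and 13.33 in I1, against 14.46 and 13.27 in the main values. LCP2 was 10.65 in I3 and 10.07 in I4, against 10.98 and 10.01.

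Without I3 the MEA mean was 14.51 ± 0.37 (SD, n = 9) for VAV1 ENSECAT00000016450, 11.97 ± 0.31 for ENSECAT00000016417 and 9.61 ± 0.32 for LCP2. VAV1 ENSECAT00000016417 (0.81, adjusted p = 0.0543) and LCP2 (0.71, 0.0920) were then called in SEA versus MEA. As I3 was the highest MEA horse in both, its removal lowers the MEA mean. Over all tested transcripts that fit called 554, 409 of them higher, against 101 and 65 with I3. VAV1 ENSECAT00000016450 reached an adjusted p of 0.093 in MEA versus CTRL without I3, at a log2 difference of 0.58, just under the fold limit. With C1 and I3 both left out, the MEA versus CTRL differences were 0.23 to 0.48 and none was called.

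The other horses at the ends were SEA horse R6 and MEA horse I7, named after their values were seen. R6 was the highest SEA horse in all 6 transcripts, on average 0.996 above the SEA mean, and was the highest in 22.3% of all tested transcripts. Without it the SEA versus CTRL differences were 1.002 to 1.22 and all stayed called. I7 was the lowest MEA horse in 4 transcripts, with a mean deviation of −0.84. Without it 2 VAV1 transcripts were called in MEA versus CTRL, ENSECAT00000016450 (0.84, adjusted p = 0.0601) and ENSECAT00000016365 (0.77, 0.0637). Over all tested transcripts 740 were then called, 256 of them higher, against 480 and 159 with I7.

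**Figure D5:**
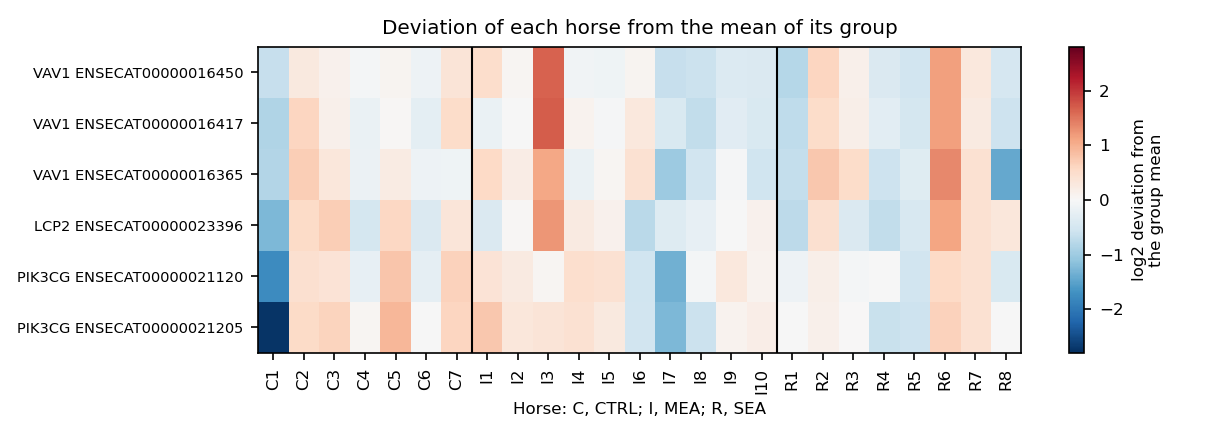
Deviation of each horse from its own group mean (log2, colour scale, red above and blue below the mean), with the 6 transcripts as rows and the horses, ordered by group, as columns. C1 is lowest among CTRL in all 6, I3 stands high in the VAV1 and LCP2 transcripts but near 0 in PIK3CG, and R6 is highest among SEA in all 6.

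Marker levels of cell types differed in these horses. Mean levels of marker lists were used, of 7 neutrophil, 7 macrophage, 12 epithelial and 9 lymphocyte transcripts. STAB1 of the macrophage list and IL2RB of the lymphocyte list did not pass the filter on low intensity. C1 had the lowest neutrophil (7.09), macrophage (8.95) and lymphocyte (6.004) marker level of the CTRL horses and the highest epithelial level (10.65). I3 had the highest neutrophil level (11.91) and the lowest macrophage level (8.98) of the MEA horses. R6 likewise had the highest neutrophil (11.35) and the lowest macrophage level (9.51) of the SEA horses. I7 had the highest epithelial (9.95) and the lowest lymphocyte level (5.65) in MEA. The cell counts of these horses ran the same way as the markers only in part. C1, like some other CTRL horses, had no counted neutrophils. I7 was among the MEA horses with the highest epithelial counts, but also among those with the highest lymphocyte counts. R6 had the lowest neutrophil and the highest macrophage count in SEA, C1 had no counted epithelial cells and the highest lymphocyte count in CTRL, and the neutrophil and macrophage counts of I3 lay within the range of the other MEA horses. What the marker levels say about cell numbers in these horses is therefore unsettled, and their part in the members' levels was not tested.

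Cell counts differed between groups far more than marker ranges did: neutrophils were rare in CTRL, a minority in MEA and the main cell in SEA, where macrophages were few, and counted epithelial cells were scarce in all groups and not fewer on average in asthma. Neutrophil markers ranged from 7.09 to 9.78 in CTRL, 8.02 to 11.91 in MEA and 7.26 to 11.35 in SEA. Marker symbols come from transcripts that the study called changed in these same horses. Counts of called markers are therefore not independent evidence of a direction. Of all tested transcripts 15.9% were called higher and 16.6% lower in SEA versus CTRL. In that comparison 5 of 7 neutrophil markers were called higher, CSF3R (2.53) and G0S2 (2.51) at the top, and ANXA3 fell by 1.49. All 12 epithelial transcripts were called lower, RSPH4A by −3.13 and RSPH9 by −2.62 at most, and their mean level was 9.13 to 10.65 in CTRL and 4.10 to 9.16 in SEA. Of 7 macrophage transcripts 1 was called higher, CD68 (0.84), and of 9 lymphocyte transcripts 5 were called higher, CTLA4 (1.43) and TRAT1 (1.16) at the top, and GZMB (ENSECAT00000018054) was called lower at −1.35. Macrophage levels ranged from 8.95 to 10.06 in CTRL and 9.51 to 10.78 in SEA, and lymphocyte levels from 6.004 to 7.39 and 5.41 to 8.27.

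In MEA versus CTRL 11 of 12 epithelial transcripts were called lower, with RSPH9 at −2.23 and −2.11, against 6.51% of all tested transcripts. SIGLEC1 of the macrophage list was called higher by 2 transcripts (1.14 and 0.83), against 3.23% of all tested transcripts. No neutrophil marker was called higher and ANXA3 fell by 1.31. Epithelial levels ranged from 6.51 to 9.95 in MEA. In SEA versus MEA no marker transcript was called, with median log2 differences of 1.69 for neutrophil and −0.60 for epithelial markers. The cell mixture cannot be told apart from group in any of these comparisons, since the neutrophil counts of no pair of groups overlapped.

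The neutrophil percentage of each horse's BAL fluid, from the study's cell counts, was set against the 3 genes within the asthma groups. In the 8 SEA horses r was −0.72 for VAV1 (exact p = 0.0359), −0.63 for LCP2 and −0.70 for PIK3CG (exact p = 0.0477), with p of 0.143, 0.164 and 0.143 after adjustment over 6 relations. Without R6 and R8, the 2 horses farthest from the median percentage, they were −0.11, −0.52 and −0.38. The VAV1 mean of R8, which had the highest neutrophil percentage in SEA, includes the low second spot of ENSECAT00000016365. R8 deviated from the SEA mean by −1.43 in that transcript, and by −0.57 and −0.46 in ENSECAT00000016417 and ENSECAT00000016450. In the 10 MEA horses r was 0.11, −0.53 and 0.06 (adjusted permutation p = 0.875, 0.181 and 0.875), and the rho of LCP2 was −0.76 (permutation p = 0.0137, adjusted 0.0823). None of the 6 relations passed after adjustment.

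Genes that work beside the members were taken in groups, named by function, and 69 transcripts of 58 genes were listed, 61 of them tested. Their symbols come from transcripts that the study called changed in these same horses. Their counts, in all and list by list below, are therefore not independent evidence of a direction. The shares beside them are of all tested transcripts, and the share among transcripts with a symbol is not given. In SEA versus CTRL 59 of 61 were called higher and none lower, with a median log2 difference of 1.296, against 15.9% and a median of −0.01 for all tested transcripts. In MEA versus CTRL 8 of 61 were called higher with a median of 0.56, against 3.23% of all tested transcripts, and in SEA versus MEA 3 of 61 with a median of 0.68, against 1.32%.

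Receptors upstream of the adaptors were called higher in SEA versus CTRL by 11 of 11 transcripts, with a median of 1.78. TREM1, an amplifier of myeloid inflammation that signals through an ITAM adaptor, rose by 3.595 (SE 0.84, adjusted p = 0.0119) and 3.499 (SE 0.82, adjusted p = 0.0122) in its 2 transcripts, the first from a mean of 10.66 in CTRL to 14.25 in SEA. Of the 11, 2 were called in MEA versus CTRL, CLEC7A, the beta-glucan receptor of myeloid cells (1.4995, adjusted p = 0.0858), and CD84, a SLAM family receptor (0.99, 0.0866). SLAMF1 was the only receptor called in SEA versus MEA (1.43, 0.0857).

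Of 14 transcripts of kinases, phosphatases and ubiquitin ligases 13 were called higher in SEA versus CTRL, with a median of 1.33. LYN, a Src family kinase that phosphorylates ITAM motifs, rose by 2.06 (SE 0.43, adjusted p = 0.00788) and PTPRJ, a receptor tyrosine phosphatase, by 1.58 (SE 0.44, 0.0191). CBLB (0.62, 0.111) was not called. Of the 14, 1 was called in MEA versus CTRL, CBL ENSECAT00000005112, a ubiquitin ligase of activated receptors, at 0.95 (adjusted p = 0.0899), from a mean of 3.88 to 4.82, close to the filter limit of 4.5.

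Of 16 transcripts of adaptors and of the calcium arm, which LCP2 feeds through phospholipase C gamma, 15 were called higher in SEA versus CTRL, with a median of 1.17. ITPR1, the receptor through which inositol trisphosphate releases calcium, rose by 1.81 (SE 0.32, adjusted p = 0.00396) and 1.80 (SE 0.31, 0.0038) in the 2 transcripts at the top. SOS2 (0.58, 0.182), an exchange factor for Ras, was not called. ITPR1 was also called by MEA versus CTRL in ENSECAT00000023535 (1.25, adjusted p = 0.0479) and ENSECAT00000023419 (1.12, 0.0933), among 3 of 16 called.

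Of the genes around phosphoinositide 3-kinase gamma, 10 of 10 transcripts were called higher in SEA versus CTRL, with a median of 1.296. The chemokine receptor CCR7 was among those with the largest rise, at 1.83 (SE 0.46, adjusted p = 0.0147). None of the 10 was called in MEA versus CTRL, and CCR7 was called in SEA versus MEA (1.76, 0.0857). The members' own differences in SEA versus CTRL, 1.15 to 1.32, lay below the median of the receptor list and near those of the kinase, adaptor and PI3K gamma lists.

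Other tested transcripts with a symbol resembled the members' pattern over the 25 horses, by Pearson's r as a description, which also reflects the shared difference between groups. For VAV1 they were TNFRSF1B, a receptor of tumour necrosis factor (r = 0.94, 0.90 with the group means subtracted), RASSF2 (0.94, 0.89) and ETF1, a translation release factor (0.93, 0.90). For LCP2 they were PSTPIP1, a cytoskeletal adaptor of leukocytes, by 2 transcripts (0.93 and 0.92, both 0.91 within groups) and ARID3A, a DNA-binding protein (0.93, 0.89). For PIK3CG they were ELF4, an ETS family transcription factor (0.87, 0.81), ENTPD1, the ectonucleotidase CD39 (0.86, 0.79), and DOCK8, an exchange factor for Cdc42 (0.85, 0.77).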

How the data were processed

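BAL cell RNA of each horse was labelled with Cy3 and hybridised to a 1-colour Agilent array. The deposited intensity values, per the file headers, are processed signals of Feature Extraction 9.5.1, which subtracts background and detrends within the array. The authors also deposited a table of intensity values normalized by cyclic loess in R 2.11.1 (per the submitters' processing notes), used as an alternative. Spot saturation was not taken into account.

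Here the log2 of the processed signal was normalized by cyclic loess (span 0.7, 3 iterations) over the 25 arrays with limma 3.58.1 in R 4.3.3, and the 2 spots of each transcript were averaged. A transcript was dropped if 19 or more arrays showed it under 4.5 on the log2 scale, which kept 4930 of 7238. Groups were compared in pairs by limma (lmFit and eBayes on the arrays of the 2 groups) with Benjamini-Hochberg adjustment over all 4930. A call needed both an adjusted p under 0.1 and a change of 1.5-fold or more. Normalization, the limit on low intensity and the thresholds follow the study's methods. The study's further exclusion by spike-in intensity was not applied, and the number of transcripts kept differs from the study's. limma replaced the rank sum version of SAM, run as an alternative with 100 permutations. The fit was tested on simulated data. Correlations within groups used SciPy 1.17.1, two-sided, with exact permutations under 10 horses and 100000 resamples otherwise. The number of arrays limits the precision.

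Groups come from the sample labels, and replicate numbers only name horses. Nothing was pooled. Neutrophil and epithelial percentages come from the study's cell count table. Gene symbols, known for 1684 of the tested transcripts, come from the study's tables of changed transcripts. Members, gene lists and markers were chosen with earlier results of these data known. Besides the 6 members, at most 2 called transcripts with the largest rise and 2 with the largest fall were named per list in each comparison with CTRL, together with the 3 nearest patterns per gene. Genes named outside this rule were chosen after their values were seen: CBLB, SOS2, SLAMF1, and CCR7 in SEA versus MEA. Alternatives chosen after seeing the data were C1 and I3 left out together, a covariate for the detected share of each array's spots, identical probes averaged, the median of the 4 spots, and slide 4 left out. A search of promoters for motifs was not run. Values of 1 gene and of 1 gene list are not reported here beyond the total counts over all lists.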

Additional observations from a re-analysis of the deposited data

Results flagged for a closer look

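In 18 combinations of a member and a group, 5 held a horse set apart by Dixon's criterion. The criterion asks whether the gap to the nearest neighbour was large against the range of the group. All were C1 or I3, which the choice of the subject had already named as outlying in these data. The flags therefore describe that choice and are not weighed against chance. CTRL horse C1 was lowest for PIK3CG ENSECAT00000021205 at 3.23, with the next horse at 5.97, and for ENSECAT00000021120 at 4.01, with the next at 5.54. MEA horse I3 was highest for VAV1 ENSECAT00000016450 at 16.35 (next 15.18), for VAV1 ENSECAT00000016417 at 13.85 (next 12.46) and for LCP2 ENSECAT00000023396 at 10.98 (next 10.01). The transcripts of a gene are not separate evidence, since the PIK3CG probes overlap in sequence. No combination in SEA met the criterion. The criterion was applied to the levels after cyclic loess only. After quantile normalization I3 led the next MEA horse by less for VAV1 and LCP2, and whether it would be flagged was not tested.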

How the results depend on the processing

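All 6 transcripts kept their call in SEA versus CTRL under every alternative run except the normexp background correction with its offset of 50, which called 4 of 6. Leaving out each horse in turn gave 6 calls in SEA versus CTRL, 0 to 2 in MEA versus CTRL and 0 to 2 in SEA versus MEA. The calls gained in MEA versus CTRL came without C7 (VAV1 ENSECAT00000016450, 0.83, adjusted p = 0.0878), I7 (2 VAV1 transcripts) or I8 (ENSECAT00000016450, 0.84, 0.0985), and those in SEA versus MEA without I3. Over all tested transcripts the fits without C7, I7 and I8 gave 645, 740 and 371 calls, of which 222, 256 and 111 were higher. In MEA versus CTRL, limma with trend and robust settings called 1 transcript, rank sum SAM 3 and the fit without slide 4 called 3, and in SEA versus MEA rank sum SAM called 2; the cause was not tested. VAV1 ENSECAT00000016365 had the opposite sign in SEA versus CTRL on slide 4 only (−0.12). Its second spot there read 9.69 in SEA horse R8 and 10.16 in CTRL horse C7, and its first spot 12.70 and 12.48. ENSECAT00000016417, with the same sequence, read 12.21 in R8 and 12.04 in C7. With the replicate block, where replicate numbers only name horses, 6, 0 and 0 members were called; correlations of same-numbered horses ran from −0.44 to 0.41.

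Of the 9 relations between genes 5 passed by Pearson's r, and 3 of them after quantile normalization. None of the 5 passed without the 2 horses farthest from the median, where fewer horses remained. The only relation to pass there was VAV1 with LCP2 in SEA (adjusted exact p = 0.025), which had not passed with all horses (0.0639). VAV1 with LCP2 in MEA turned to −0.44. Without the 2 horses farthest from the median neutrophil percentage, r in MEA turned to −0.033 for VAV1 and −0.53 for PIK3CG.

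Over all transcripts, 1601, 480 and 101 were called in SEA versus CTRL, MEA versus CTRL and SEA versus MEA. Leaving out each horse in turn gave 1230 to 1693, 157 to 740 and 2 to 554, so the shares over all transcripts in the last 2 comparisons depend on single horses. MEA versus CTRL gave 157 without C1, 180 without C6, 189 without C4, 317 without I10, 290 without I2, 299 without I5, 308 without I9 and 740 without I7. SEA versus MEA moved by over 1.5 times whichever horse was left out, the extremes being 2 without I9 or R2 and 554 without I3. SEA versus CTRL gave 842 with normexp. MEA versus CTRL gave 156 with normexp, 136 with the replicate block, 745 by rank sum SAM, 804 without slide 4 and 0 with the epithelial percentage as a covariate, and with the slide block 48 were called higher, 28.1% of its calls. SEA versus MEA gave 0 with 75th percentile scaling, normexp, the slide block, the replicate block and without slide 4, 40 after quantile normalization, 166 with the detected share of each array's spots as a covariate, 37 with the epithelial percentage, 265 with all arrays in 1 fit and 662 by rank sum SAM. The share of calls that were higher was 33.1% in MEA versus CTRL (17.9% with normexp) and 64.4% in SEA versus MEA (85% after quantile normalization, 76.9% with the authors' values). Scaling to the 75th percentile moved the median log2 difference of all transcripts in SEA versus MEA to −0.13. In C1, 3 PIK3CG spots were not well above background.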
